A study of Homo sapiens with 4 samples.

Results

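Progenitor 1 nuclei were the nuclei that the authors' annotation places in the class of that name, and the response of this class to PP121 is described here on its own. The class held 2892 of the 14812 annotated nuclei, among 25306 nuclei deposited in all. They came from 4 samples of stage 1 enteric ganglioids, which are spheroids of enteric neurons and their progenitors made in suspension from H9, an established human embryonic stem cell line. A total of 2 samples were controls and 2 had received 2 µM PP121 between days 15 and 20; each sample pooled ganglioids of one differentiation. Control replicate 1 gave 586 Progenitor 1 nuclei, control replicate 2 gave 608, PP121 replicate 1 gave 1197 and PP121 replicate 2 gave 501. In the deposited annotation replicate 1 of each treatment is dated day 42 and replicate 2 day 38, so a replicate number stands for a shared annotated day; the study's text names a single harvest day that matches neither date, so day 42 and day 38 are used here only as the annotation's labels, and whether control and PP121 samples of a number also share a differentiation is not given in the sources used here. All samples carry 1 genetic background, and the nuclei were taken well after PP121 had been withdrawn.

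PP121 is a small molecule inhibitor of several receptor tyrosine kinases, among them the PDGF and VEGF receptors, and of related kinases. Progenitors in this culture derive from neural crest cells that were patterned toward the vagal level, the level that populates the gut, and they can divide or leave the cell cycle as neurons. Genes of glycolysis are switched on together by the hypoxia-inducible factors, and genes such as CDKN1A and MDM2 are switched on together by p53 when DNA or ribosome production is disturbed.

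The class carried its name only in part. Of the 7 progenitor markers used by the study (NOTCH1, SOX2, MEF2C, PAX3, PAX7, NFIA and MKI67), 6 were higher in Progenitor 1 than in enteric neurons, but all 7 were lower than in Progenitor 2. Mean PAX3, a paired-box factor of dorsal neural progenitors, was 247 CPM (unique molecular identifiers, UMIs, of a gene scaled to the size of the summed library) in Progenitor 1, against 721 in Progenitor 2 and 165 in neurons. All 11 neuron markers were lower than in enteric neurons. The genes that stood highest over both other classes in every sample were none of these markers: PER1, a clock gene, had a mean of 92.9 CPM against 22.7 and 25.6, and the chaperone gene DNAJC3 had 338 against 107 and 85.8. MDM2 was among them, with 415 CPM in Progenitor 1, 154 in Progenitor 2 and 95.7 in neurons. These levels describe a class that was itself found by clustering, and were not tested. Mesenchymal markers summed to between 169 and 304 CPM over 13 genes, with TWIST1 at no more than 2.3 CPM in any sample, and the 3 epithelial markers summed to between 4.27 and 16.4 CPM.

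Before any gene was compared, the nuclei themselves differed between the treatments in 2 ways that touch the results. First, when all 4 samples were clustered together, 26% of the Progenitor 1 nuclei of PP121 replicate 1 and 17.4% of those of PP121 replicate 2 fell into a cluster made mostly of enteric neurons, against 4.27% and 2.63% in control replicates 1 and 2. The 2392 nuclei that were Progenitor 1 in both the deposited and the joint clustering are called the core nuclei here. Second, 372 and 196 nuclei of the controls (replicates 1 and 2) lay within the study's stated quality limits and yet had no class, whereas no such nucleus existed in either PP121 sample. The nearest annotated neighbours of 309 and 171 of them were Progenitor 1, which is 34.5% and 22% of the class once they are added. Their median share of ribosomal protein UMIs was 3.76% and 4.18%, against 1.22% and 1.05% in the deposited Progenitor 1 nuclei of the same samples and 1.36% and 1.16% in those of the PP121 samples. For its clustering of all control cells, the study states that it removed cells by cluster for a high ribosomal gene percentage. It lists no such removal for all control and PP121 cells clustered together. Whether the unclassed nuclei are those removed cells was not tested. The larger gene groups below are given for the deposited class, for the core nuclei and with these nuclei put back.

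**Figure D1:**
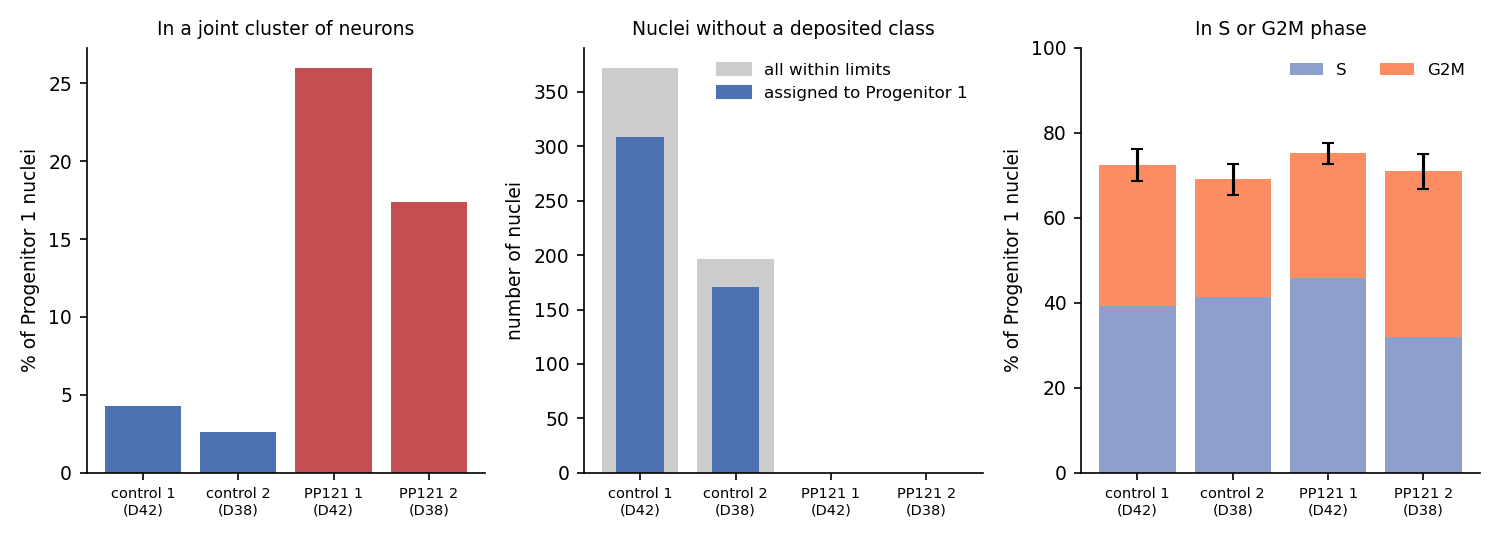
Makeup of Progenitor 1 by sample. Left, percent of Progenitor 1 nuclei that fell in a neuron cluster of the joint clustering, 4.27% and 2.63% in controls and 26% and 17.4% with PP121; middle, number of nuclei within the quality limits but without a class (grey) and those nearest Progenitor 1 (blue), present in the controls and absent with PP121; right, percent of Progenitor 1 nuclei in S and G2M phase, stacked, with exact binomial 95% intervals of their sum.

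The UMIs of the Progenitor 1 nuclei were summed per sample, giving 3957567 and 3986617 UMIs for the controls and 7021875 and 3045010 for PP121 (replicate 1, then 2, here and in what follows), with a median of 4854 to 5954 UMIs per nucleus. No cell barcode was shared between samples among Progenitor 1 nuclei. The sums were tested with edgeR's quasi-likelihood test over 16083 genes, and an adjusted p is after Benjamini and Hochberg. Without regard to the replicate number no gene passed an adjusted p of 0.05 (0% of genes tested), while 621 genes (3.86%) had an unadjusted p under 0.05 and DESeq2 called 1. With the replicate number as a block, so that PP121 and control were compared within a day, 593 genes passed, which is 3.69% of those tested; 467 were higher with PP121 (2.9%) and 126 lower (0.783%). DESeq2 with the same block called 75 genes, all of them among the 593. The block left 1 residual degree of freedom, and the error of each gene was shared across genes. The SE and p of a gene with the block therefore say little about the spread between its own replicates. In the text that follows, a gene is said to rise or fall with PP121 when it passed with the block, and fold changes are log2 values from that fit with their standard error (SE). Without the block, edgeR called none of them with its filter on low counts and 71 of them without that filter, and DESeq2 called 1 of them. The samples of one treatment lay entirely above those of the other for 29.3% of all genes tested, so that this alone marks little.

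The count moved with the nuclei that were chosen. The core nuclei gave 306 calls with the block (1.93% of 15818 genes), and putting the unclassed control nuclei back gave 1079 (6.33% of 17050 genes). Leaving out, for each gene, the 3 nuclei with most of its UMIs in each sample gave 600 (4.09% of 14673 genes). A total of 182 genes were called in all 4 of these fits, 156 of them higher and 26 lower with PP121.

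Among coding genes at 10 CPM or more, PFKFB4, a kinase and phosphatase that sets the level of the main activator of glycolysis, rose. It stood at 64.7 and 115 CPM in the controls and at 152 and 460 with PP121. Both PP121 samples were above both controls, and within each day the PP121 sample was the higher; the log2 fold change was 1.62 (SE 0.17, adjusted p = 2.83e-18). It was 1.62 in the core nuclei and 1.67 with nuclei put back. PFKFB4 lies on chromosome 3, 48517684 to 48562015, minus strand (GENCODE 29 on GRCh38).

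CACNA2D1, an auxiliary subunit of voltage-gated calcium channels, was at 47.9 and 76.1 CPM in the controls and 113 and 307 with PP121. The highest sample was PP121 replicate 2, and the log2 fold change of 1.63 (SE 0.18, adjusted p = 1.65e-16) was 1.05 in the core nuclei (adjusted p = 0.000809). FOXP2, a forkhead transcription factor, was at 13.9 and 21.5 CPM in the controls and 21.6 and 111 with PP121, so that the lower PP121 sample lay next to the higher control. Its log2 fold change was 1.58 (SE 0.24, adjusted p = 2.69e-08), and 1.746 in the core nuclei. The log2 ratio was 0.64 within day 42 and 2.37 within day 38, and DESeq2 with the block did not call FOXP2. ADCY8, a calcium-stimulated adenylyl cyclase, rose by 1.80 on the log2 scale, from 3.16 and 9.15 CPM to 17.8 and 22.2, but was not called in the core nuclei (1.14, adjusted p = 0.106).

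Several of the largest rises rested on very few nuclei of 1 sample. RAPGEF4-AS1, an antisense transcript of RAPGEF4, had a log2 fold change of 4.02 with 1.46 and 1.35 CPM in the controls and 44.1 and 5.54 with PP121, but 95.1% of its 327 UMIs in PP121 replicate 1 lay in 3 nuclei. The same held for EDARADD, an adaptor of ectodysplasin signalling, with 95.4% of 411 UMIs in 3 nuclei, for EYA4, a transcriptional co-activator and phosphatase, with 91.7% of 216, and for GRAMD4, with 87.9% of 667. Without each gene's 3 highest nuclei per sample, EDARADD went from 2.78 to 0.72 (adjusted p = 0.755) and GRAMD4 from 1.63 to -0.05 (adjusted p = 0.978), while RAPGEF4-AS1 and EYA4 had too few UMIs left to be tested. ANXA8, an annexin named for its small p without the block, had 20 and 52 UMIs in the controls and 3 and 2 with PP121, at least 95% of them in 3 nuclei of each sample.

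The genes that fell most were at modest levels. PSD4, an exchange factor for small ARF GTPases, fell from 26.2 and 7.53 CPM to 4.99 and 2.77, a log2 fold change of -2.11 (SE 0.37, adjusted p = 2.47e-06). ARHGAP42, a GTPase-activating protein on chromosome 11 (100687653 to 100993941, plus strand), had the smallest p of the named genes without the block in edgeR's quasi-likelihood test (adjusted p = 1.00). It was at 95.8 and 73.7 CPM in the controls and 32.5 and 31.5 with PP121. The PP121 samples were nearly equal and far below either control, with a log2 fold change of -1.41 (SE 0.21, adjusted p = 8.6e-09), which was -1.10 in the core nuclei and -1.45 with nuclei put back. INPP5D, a phosphatase of phosphoinositides, fell by 1.25 on the log2 scale and kept its call in the core nuclei (-1.13, adjusted p = 0.0409). MMACHC, a vitamin B12 processing enzyme, FTCD, an enzyme of histidine breakdown, TSPEAR, E2F7, a repressor of the E2F family, and the antisense transcripts DACT3-AS1 and SEPTIN4-AS1 fell by between 1.08 and 1.29 on the log2 scale, and none of these 6 was called in the core nuclei, where they were between -1.03 and -0.84.

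Of the clone-named transcripts, AC007563.2, AC069133.1 and AL627171.2 rose, by 2.04, 1.76 and 1.69 on the log2 scale, and AC006487.1, AC025280.3 and AL691403.1 fell, by 1.57, 1.51 and 1.31. AC006487.1 lies opposite NGFR and AC025280.3 opposite CRISPLD2 in GENCODE 29, and AL627171.2 covers the abundant RNA gene RN7SL2 on the same strand. Whether strand was used in the counting is not given in the sources used here, so reads of such pairs may not be told apart.

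**Figure D2:**
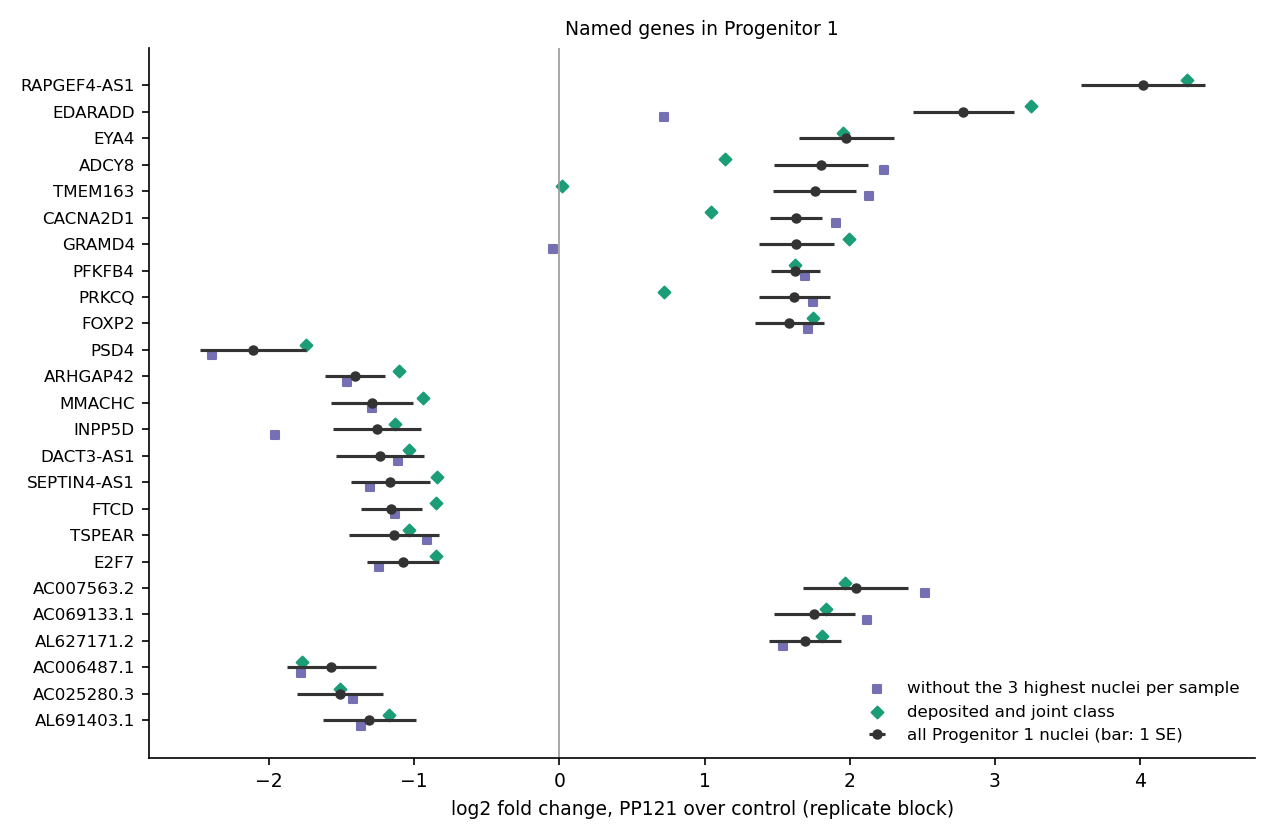
Log2 fold change of PP121 over control in Progenitor 1 (x axis) for 25 genes named by rule from the fit with the replicate block (y axis); black points with bars of 1 SE are all Progenitor 1 nuclei, purple squares leave out each gene's 3 highest nuclei per sample and green diamonds are the core nuclei. GRAMD4 and EDARADD move toward 0 without their 3 highest nuclei, and TMEM163 lies at 0.02 in the core nuclei; RAPGEF4-AS1 and EYA4 have no square because too few UMIs remained.

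Some genes rose in the deposited class and were not called in the core nuclei, from which nuclei that clustered with neurons had been removed. TMEM163, a zinc transporter of synaptic vesicles, was at 6.56 and 9.96 CPM in the controls and 29.1 and 25.6 with PP121, a log2 fold change of 1.76 (SE 0.29, adjusted p = 5.03e-07). In the core nuclei it was 0.02 (adjusted p = 0.993). LUZP2, a leucine zipper protein gene, went from 1.41 to -0.03 in the same way. PRKCQ, a protein kinase C, rose by 1.62 and was at 0.72 in the core nuclei (adjusted p = 0.281). Of the 11 neuron markers of the study, 2 rose and none fell: DCX, a microtubule-associated protein of migrating neurons, by 0.73 (SE 0.19, adjusted p = 0.00491), and NRG1, a ligand of the ERBB receptors, by 1.11 (SE 0.22, adjusted p = 5.06e-05). The median of the list was 0.44, beside -0.00 over all genes, and in the core nuclei it was -0.17 with no member called; since neuron genes helped to decide which nuclei were removed, a lower value there follows from the choice of nuclei and is no separate evidence. With nuclei put back 4 markers rose and the median was 0.55. The summed level of the 11 markers was 1209 and 974 CPM in the controls and 1324 and 1424 with PP121, and in the core nuclei 1138 and 902 against 885 and 994.

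Of 30 genes of glycolysis and of the hypoxia response tested, 14 rose and none fell, with a median log2 fold change of 0.60. Over all genes tested 2.9% rose and 0.783% fell. The controls and PP121 samples did not overlap for 16 of the 30, beside 29.3% of all genes tested. ENO1, the enolase of glycolysis, was at 72.2 and 135 CPM in the controls and 158 and 338 with PP121. Both PP121 samples exceeded both controls, and the log2 fold change was 1.23 (SE 0.17, adjusted p = 3.25e-10), with 1.13 within day 42 and 1.32 within day 38. GPI, which interconverts glucose and fructose phosphates, was at 75.8 and 106 CPM in the controls and 144 and 258 with PP121 (log2 fold change 1.10, SE 0.17, adjusted p = 7.15e-08). HK2, the hexokinase that traps glucose, was at 35.2 and 72.6 against 65.4 and 150 CPM. The samples of HK2 overlapped, because day 38 was higher than day 42 in both treatments, and its fold change within a day was 0.89 and 1.04.

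The other members of the list that rose were the glycolytic enzymes PFKP, PGK1, PKM, LDHA and GAPDH, the glucose transporter SLC2A1, PDK1, which holds pyruvate back from the mitochondria, the mitophagy receptor BNIP3, the growth factor VEGFA, the collagen hydroxylase P4HA1 and the histone demethylase KDM3A, by between 0.50 and 1.20 on the log2 scale. In the core nuclei 13 members rose, with a median of 0.63. With the unclassed control nuclei put back 6 rose, and the median was 0.38. GAPDH, at 87.0 and 104 CPM in the controls and 211 and 226 with PP121, had a log2 fold change of 1.20 (SE 0.17, adjusted p = 1.71e-09), which was 0.08 (adjusted p = 0.829) with nuclei put back. LDHA went from 0.79 to 0.17 (adjusted p = 0.638). ENO1, GPI and HK2 kept their calls, at 0.90, 0.95 and 0.95.

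The 250 bases before their annotated start (RefSeq, GRCh38.p14) were searched for ACGTG, the core letters of the hypoxia response element, on either strand (CACGT on the reverse; CACGTG holds both). Of 26 members with a promoter in that table, 13 (50%) held it, as did 23% of 11020 promoters of genes tested in Progenitor 1 and 18.7% of all 27305. Of the 13 that rose and were in the table, 7 held it, while ENO1, PDK1, PKM, PFKP, SLC2A1 and KDM3A did not. The promoters of HK2 (chromosome 2, 74833877 to 74834126), LDHA (chromosome 11, 18394313 to 18394562) and GAPDH (chromosome 12, 6535014 to 6535263), all on the plus strand, are shown because HK2 kept its rise with nuclei put back while LDHA and GAPDH did not; capitals mark the matches.
HK2: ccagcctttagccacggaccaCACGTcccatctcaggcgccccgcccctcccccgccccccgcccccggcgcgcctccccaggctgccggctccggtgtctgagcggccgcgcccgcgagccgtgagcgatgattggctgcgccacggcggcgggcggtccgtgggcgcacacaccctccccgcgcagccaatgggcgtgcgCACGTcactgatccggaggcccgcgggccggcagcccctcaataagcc
LDHA: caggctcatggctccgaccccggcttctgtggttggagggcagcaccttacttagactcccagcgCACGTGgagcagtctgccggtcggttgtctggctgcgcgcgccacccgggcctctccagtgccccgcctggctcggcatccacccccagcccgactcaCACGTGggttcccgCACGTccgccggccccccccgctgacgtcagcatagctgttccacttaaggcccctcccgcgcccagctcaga
GAPDH: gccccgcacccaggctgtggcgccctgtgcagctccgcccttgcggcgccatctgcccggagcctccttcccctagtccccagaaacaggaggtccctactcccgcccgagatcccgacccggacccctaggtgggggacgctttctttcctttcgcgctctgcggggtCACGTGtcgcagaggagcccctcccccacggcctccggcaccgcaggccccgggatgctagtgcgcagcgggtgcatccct
A match is a run of letters in this window and not a measured binding site. Members were listed for glycolysis and the hypoxia response, so a higher share than over all genes may follow from that choice. The share was 53.8% among the members that rose and 50% over the list, and was not tested.

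Ribosomal protein genes were added to the lists after their values were seen, because the unclassed control nuclei stood out by their ribosomal share. Of 83 tested, 67 rose in the deposited class and none fell, with a median of 0.67, where 2.9% of all genes tested rose and 0.783% fell. The summed level of the 86 listed genes was 11199 and 10063 CPM in the controls and 20655 and 13886 with PP121. In the core nuclei 68 rose, with a median of 0.76. With the unclassed control nuclei put back, 50 of 83 fell, none rose, and the median was -0.53. The direction for this family depended on which control nuclei were counted. The nuclei put back had a high ribosomal share and came from controls alone, so a lower value with them follows from that choice. The deposited controls lack them, so neither direction is evidence of what PP121 did to this family. MIF, a cytokine gene that was looked up after its value was seen, went from 1.13 to -0.03 between the same sums.

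Of 21 p53 target genes 7 fell and none rose, with a median of -0.54, and no member had a fold change above 0. Over all genes tested 0.783% fell and 2.9% rose. MIR34AHG, the host transcript of the p53-induced microRNA miR-34a, was at 149 and 136 CPM in the controls and 109 and 43.6 with PP121. Both PP121 samples were below both controls and PP121 replicate 2 was far the lowest; the log2 fold change was -0.99 (SE 0.18, adjusted p = 1.13e-05). MDM2, which marks p53 for destruction, was at 470 and 517 CPM in the controls and 449 and 228 with PP121. Its difference was therefore almost all within day 38, where the log2 ratio was -1.18, while within day 42 it was -0.07.

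CDKN1A, an inhibitor of cyclin-dependent kinases, was at 52.3 and 28 CPM in the controls and 38.6 and 6.93 with PP121 (log2 fold change -0.97, SE 0.24, adjusted p = 0.00342). The samples overlapped, although each PP121 sample was below the control of its own day. ZMAT3, RRM2B, TNFRSF10B and TIGAR fell by between 0.64 and 0.80 on the log2 scale. Over the list the median ratio was -0.25 within day 42 and -0.77 within day 38. In the core nuclei no member was called and the median was -0.39. With nuclei put back, where 6.33% of all genes were called, 10 fell and the median was -0.65.

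HSP90AA1, the inducible cytosolic HSP90, was at 806 and 854 CPM in the controls and 426 and 461 with PP121. The replicates were close and the treatments far apart, with a log2 fold change of -0.91 (SE 0.14, adjusted p = 1.64e-07), -0.92 within day 42 and -0.89 within day 38. HSPH1, a nucleotide exchange factor for HSP70, and HSPA5, the HSP70 of the endoplasmic reticulum, fell too, by 0.73 and 0.66, so that 3 of 15 chaperone genes fell, with a median of -0.46. Over all genes tested 0.783% fell. HSP90AA1 and HSPH1 were called again in the core nuclei (-0.75 and -0.57). With nuclei put back, where 6.33% of all genes were called, 9 chaperone genes fell.

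**Figure D3:**
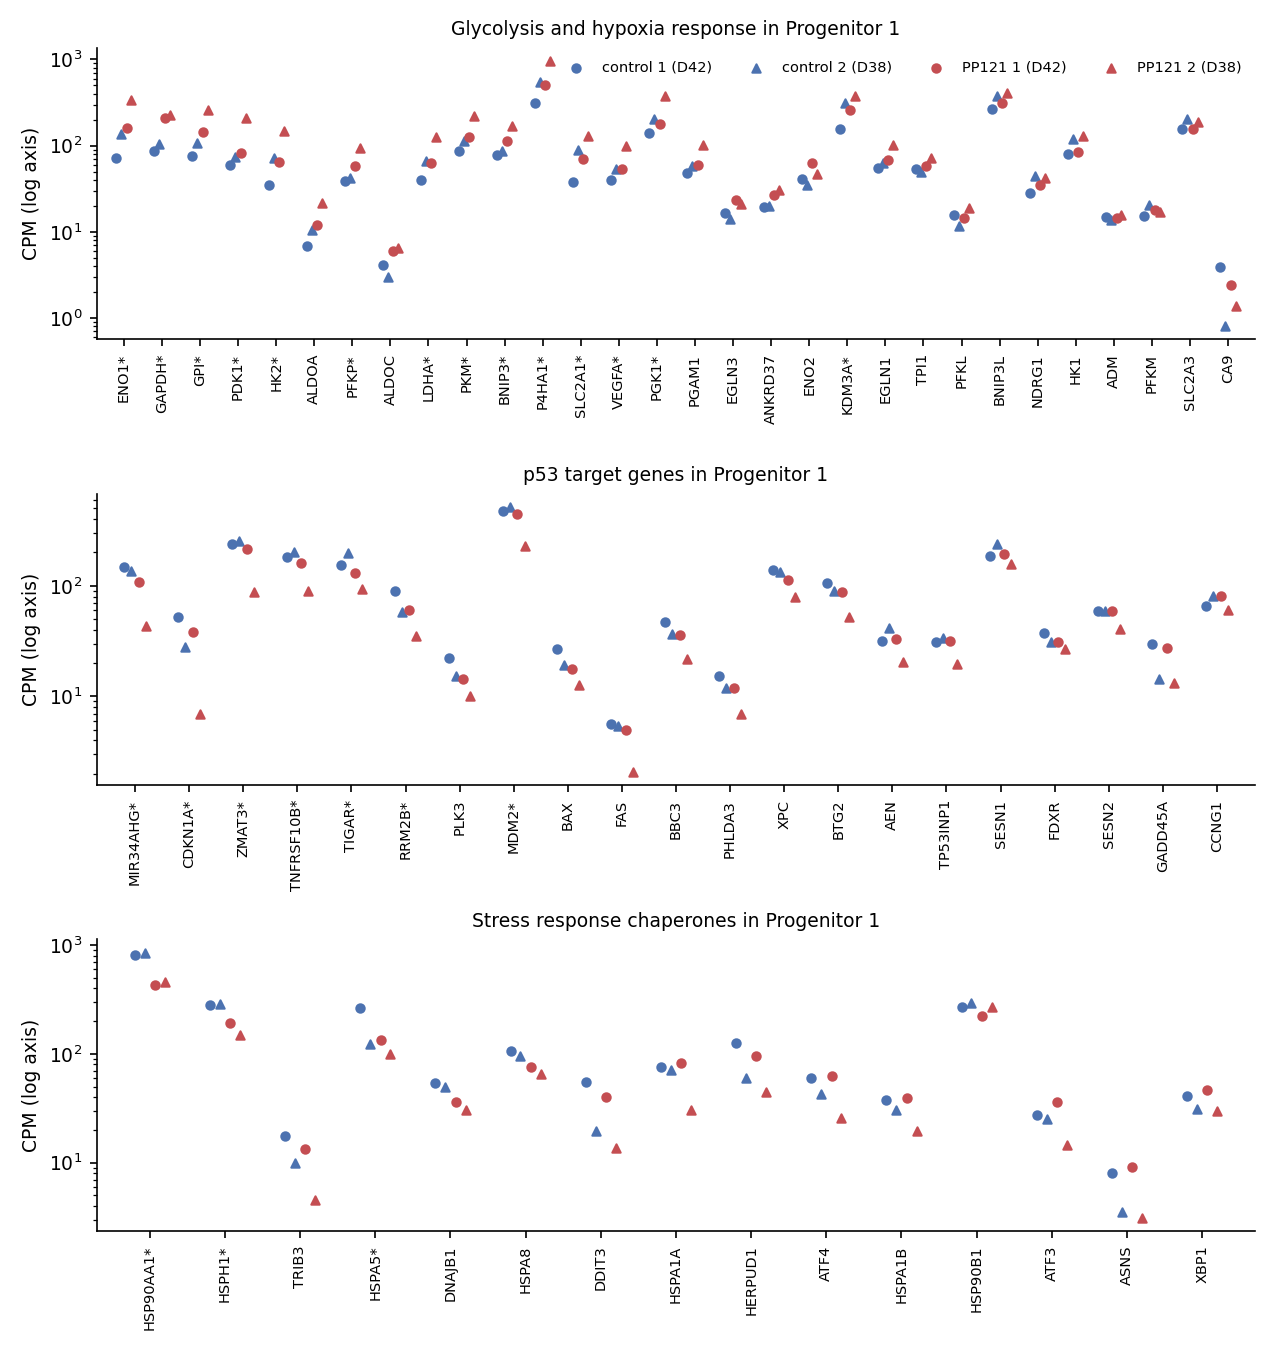
Normalised level (CPM, log axis) of each tested glycolysis and hypoxia gene, p53 target and stress chaperone in the 4 samples of Progenitor 1; circles are day 42 and triangles day 38, blue control and red PP121, and an asterisk marks an adjusted p under 0.05 with the replicate block. PP121 samples lie above the control of the same day for ENO1, GPI, HK2 and the other glycolysis genes marked with an asterisk, and for the p53 targets the red triangle (PP121 replicate 2) is the lowest for MIR34AHG, CDKN1A, ZMAT3 and MDM2.

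**Figure D4:**
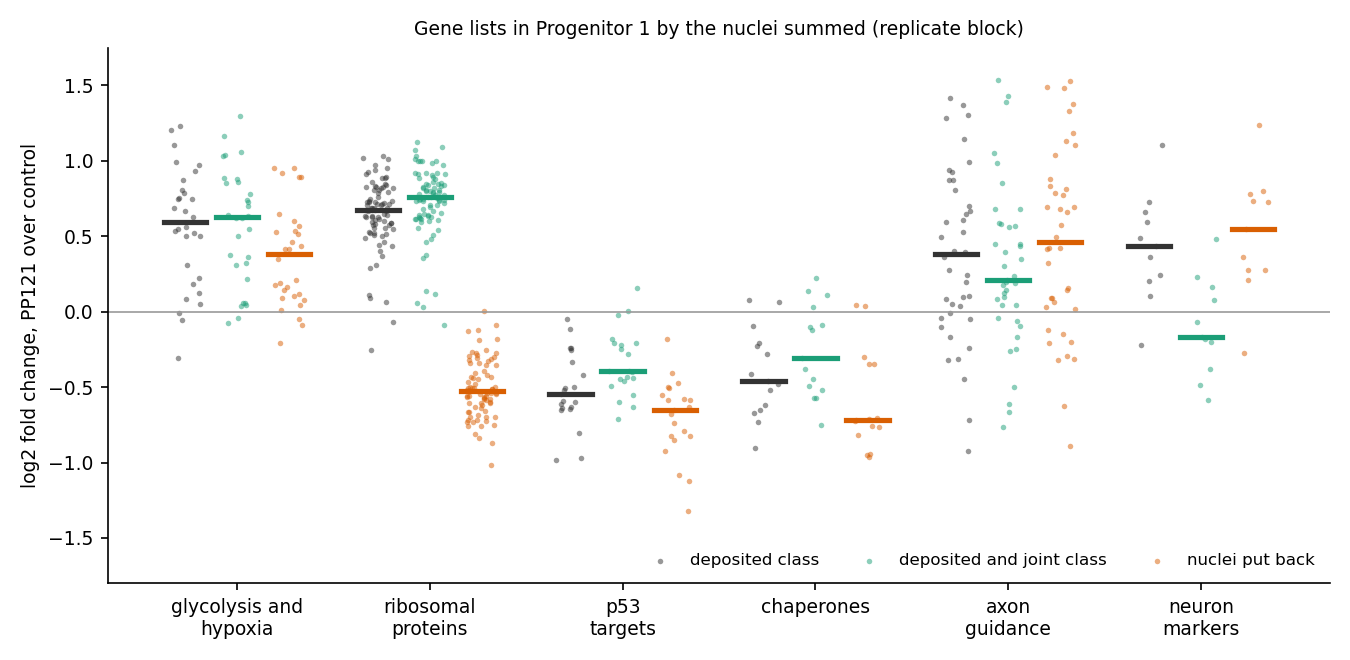
Log2 fold changes of PP121 over control with the replicate block for 6 gene lists; points are genes and thick lines list medians, for the deposited class (dark grey), the core nuclei (green, deposited and joint class) and with unclassed control nuclei put back (orange). The ribosomal median goes from 0.67 to -0.53 when nuclei are put back, and the neuron marker median from 0.44 to -0.17 in the core nuclei.

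Genes of axon guidance rose more often than they fell, as did all genes tested, of which 2.9% rose and 0.783% fell. Of 40 tested 9 rose and none fell, with a median of 0.38. The ligands that rose were SLIT2 and SLIT3, which repel axons through ROBO receptors, and the semaphorins SEMA3A, SEMA3D, SEMA5B and SEMA6A, by between 0.67 and 1.42. Of the receptors, UNC5C, which mediates repulsion by netrin, was at 37.4 and 46.5 CPM in the controls and 74.1 and 92.8 with PP121, a log2 fold change of 0.99 (SE 0.20, adjusted p = 9.17e-05) that was 0.98 in the core nuclei. EPHA7, an ephrin receptor, rose by 1.30 (SE 0.25, adjusted p = 2.31e-05) and by 1.43 in the core nuclei. DCC, the attractive netrin receptor, rose by 0.93 but was at 0.35 in the core nuclei (adjusted p = 0.467). In the core nuclei 6 of the list rose, and 16 rose with nuclei put back. The list moved in the other classes too: 14 of 43 rose and 2 fell in Progenitor 2, and 24 of 44 rose and none fell in enteric neurons. The share of all genes called in those classes is not given here, so these counts cannot be set against it.

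Some cell cycle genes rose, where 2.9% of all genes tested rose and 0.783% fell. Of 50 genes of G2 and mitosis 6 rose (MKI67, TOP2A, CKAP2L, CDC25C, CDCA2 and GAS2L3) and none fell; the median ratio was -0.08 within day 42 and 0.74 within day 38. TOP2A, the topoisomerase of dividing cells, was at 27 and 26.9 CPM in the controls and 28.6 and 70.3 with PP121, which places the difference in PP121 replicate 2 alone. Of 40 S phase genes 2 rose, RRM2, which makes deoxynucleotides, by 1.55 and the helicase gene BRIP1 by 1.05, with a median ratio of 0.11 within day 42 and 0.17 within day 38. In the core nuclei 3 G2 and mitosis genes and 1 S phase gene rose, and with nuclei put back 6 and 2. By the deposited phase calls, 72.5% and 69.1% of control and 75.3% and 71.1% of PP121 nuclei were in S or G2M, with exact binomial 95% intervals (counting error only) of 68.7% to 76.1%, 65.2% to 72.7%, 72.7% to 77.7% and 66.9% to 75.0%. The means were 70.8% ± 2.44 and 73.2% ± 2.98 (SD, n = 2), a difference of 2.36 percentage points (exact two-sided permutation test, p = 0.667), which was 2.75 points within day 42 and 1.98 within day 38. With 2 samples against 2 the smallest p possible is 0.333, so this design could not show a difference. The G2M share alone was 3.79 points lower with PP121 on day 42 and 11.5 points higher on day 38. Phase calls follow expression scores at a median of 4854 to 5954 UMIs and were used as deposited.

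Signalling genes were called singly, where 3.69% of all genes tested were called. Of 18 tested kinases that PP121 is known to inhibit or that are related to them, only ERBB4, a neuregulin receptor, rose, from 294 and 342 CPM to 329 and 626 (log2 fold change 0.52, SE 0.15, adjusted p = 0.0198), and it was not called in the core nuclei (0.45, adjusted p = 0.121). With nuclei put back the kinase gene YES1 fell (-0.52, adjusted p = 0.0329). PDGFRA was at 0.73 and 2.42 CPM in the controls and 3.91 and 3.81 with PP121 (adjusted p = 0.246), and the list's median was -0.06. SPRY1, a feedback inhibitor of ERK signalling, fell from 31.4 and 24.8 CPM to 13.4 and 13.9 (log2 fold change -1.06, SE 0.26, adjusted p = 0.00341), the only one of 16 ERK feedback and immediate early genes to be called. It was at -0.87 in the core nuclei (adjusted p = 0.0758).

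None of the 5 BMP ligands, 8 BMP receptors and 10 BMP antagonists tested was called, and of 10 BMP target genes ID1 and SMAD9 rose, by 0.84 and 0.78. ROR2, a WNT receptor, was at 8.99 and 34.2 CPM in the controls and 25.9 and 85.6 with PP121, so that the samples overlapped across days while the log2 ratio was 1.53 within day 42 and 1.32 within day 38 (log2 fold change 1.41, SE 0.23, adjusted p = 8.13e-07). No WNT ligand (10 tested), WNT modulator or target (15), Notch gene (23), proneural factor (4), SOX factor (13) or HOX gene (6) was called with the block. PTCH1, the hedgehog receptor and target, rose by 0.77, CRABP1, a retinoic acid binding protein, by 1.08, FGF14 by 0.92 and ZIC1, a factor of the dorsal neural tube, by 0.87. No FGF ligand or receptor was called in the core nuclei. Among the progenitor markers NFIA, a gliogenic factor, fell from 228 and 395 CPM to 107 and 212 (log2 fold change -0.997, SE 0.16, adjusted p = 1.99e-07), and MKI67 rose by 1.06. The log2 ratio of MKI67 was 0.13 within day 42 and 2.18 within day 38, and MKI67 was not called in the core nuclei (adjusted p = 0.182). NFIA was at -0.72 in the core nuclei (adjusted p = 0.00356) and at -0.31 in nuclei called G1 (adjusted p = 0.630), where it was not called. VIM, the intermediate filament of progenitors, rose by 0.53, and was at -0.44 with nuclei put back (adjusted p = 0.0527).

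Whether these responses were particular to Progenitor 1 was asked with an interaction term between PP121 and class. Against Progenitor 2, with the sample as a block, 1 of 19080 genes (0.00524%) differed, and 178 (0.933%) with the replicate number crossed with class as well. The 1 gene was AL356488.3, an antisense transcript opposite TMEM167B on chromosome 1 (109087971 to 109090858), whose level in Progenitor 1 was 12.8 and 8.63 CPM in the controls and 200 and 5.57 with PP121. It was high in 1 sample alone, where 98.8% of its UMIs lay in 3 nuclei, and without these the difference was 0.01 (adjusted p = 1.00). Of the glycolysis and hypoxia genes and p53 targets none differed between the 2 progenitor classes in either fit, and the median differences were 0.04 and -0.07 with the replicate block. In Progenitor 2 itself, 17 of 29 glycolysis and hypoxia genes rose and 6 of 21 p53 targets fell with the block. The share of all genes called in Progenitor 2 is not given here. Of the 11 neuron markers 3 had a higher PP121 effect in Progenitor 1 than in Progenitor 2 with the replicate block, with a median difference of 0.59.

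Against enteric neurons no gene of 20183 differed with the sample as a block (0%; 1355 had an unadjusted p under 0.05), and 634 (3.14%) differed with the replicate number crossed with class. These included 75 of 83 ribosomal protein genes, all with a higher PP121 effect in Progenitor 1 (median difference 0.78); with nuclei put back into all classes none was higher and 4 were lower (median difference -0.34). Against Progenitor 2 none of 83 ribosomal protein genes differed with the replicate block. With nuclei put back into all classes, under the same block, 68 of 83 had a lower PP121 effect in Progenitor 1 (median difference -0.74). In Progenitor 2 itself 64 of 82 rose (median 0.54), also given without a share over all its genes. Of the glycolysis and hypoxia genes 1 differed against enteric neurons with the replicate block. Putting nuclei back added 33 and 11 nuclei to Progenitor 2 and 30 and 14 to the neurons of control replicates 1 and 2, far fewer than to Progenitor 1.

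The squared correlation (R2) of the natural log of mean expression per 10000 UMIs plus 1, across all genes, was 0.982 between control and PP121, 0.970 between the control replicates and 0.942 between the PP121 replicates. Within a day it was 0.978 for replicate 1 and 0.967 for replicate 2. The value between treatments compares means of 2 samples and the others single samples, genes are not independent replicates, and these values are descriptions that do not bear on the calls.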

How the data were processed

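Droplet libraries of nuclei from 4 samples (2 control, 2 PP121) were analysed. Per the deposited matrices, the authors give the count of UMIs per gene and nucleus over 36601 gene symbols; the study's methods name kallisto and bustools, and the submitters' processing notes list Cell Ranger, Seurat 4.0.4 and GRCh38. The annotation release and the use of strand are not given in the sources used here. The percent of mitochondrial and ribosomal counts, the class, the phase and the day of each nucleus were used as deposited by the authors. The deposited sample column of the annotation disagrees with the labels of both controls and was not used.

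Counts of Progenitor 1 nuclei were summed per sample and tested with edgeR 4.0.16 (R 4.3.3; filterByExpr, TMM, quasi-likelihood test, Benjamini-Hochberg, 0.05). The replicate number marked a shared annotated day, and deviations of same-numbered samples correlated across genes (r = 0.435, 16083 genes), so the block is given beside the fit without it. With the block 1 residual degree of freedom remained. DESeq2 1.42.0 was the other tool. On simulated counts with a day effect, the fit with the block recovered 75.5% of 200 genes changed 2-fold with 11 false calls (15676 genes), and the fit without it 0%. Simulated 4-fold changes in Progenitor 1 alone were recovered at 98% by the interaction fit with Progenitor 2. The simulations gave every gene a dispersion of 0.02 and the same treatment effect on both days. They held no genes with most UMIs in few nuclei, as these data do. Their false calls therefore do not measure those of the real fits.

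Nuclei of all samples were also clustered together (scanpy 1.11.5, 2000 variable features, 18 components, 20 neighbours, Leiden resolution 0.2, S and G2M scores regressed). Unclassed nuclei with over 1250 and under 7000 features, under 40000 UMIs and under 10% mitochondrial counts took the class of their 15 nearest annotated neighbours; in 5-fold checks 90.3% of Progenitor 1 nuclei kept their class. Scrublet marked no Progenitor 1 nucleus, and so has not worked here; nuclei with the highest 10% of scores were left out as an alternative. Genes named were, in each fit, the 10 largest rises and falls among those past the threshold at a mean of 10 CPM with treatments that do not overlap, and the 3 largest of each among clone-named and LINC genes, or the 5 with the smallest p where none passed; 5 of each direction for interactions, or 3 with the smallest p; and list members that passed, lay apart or stood first. Some items that the rule covers are not reported here. The members, the 35 lists and the tests were chosen with earlier results of these data known.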

Additional observations from a re-analysis of the deposited data

Results flagged for a closer look

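Results are given here where the PP121 effect differed between Progenitor 1 and another class by the interaction test; values are differences of log2 fold changes, Progenitor 1 minus the other class, and no explanation was weighed. Against Progenitor 2, AL356488.3 differed by 5.29 with the sample block and by 5.35 with the replicate block. With the replicate block CLDN6, a tight junction protein of epithelia, differed by 3.09, AC092100.1 by 3.08, RAPGEF4-AS1 by 2.92 and EDARADD by 2.73. In PP121 replicate 1 the 3 highest nuclei held 91.9% of the CLDN6 UMIs and 82.8% of those of AC092100.1, and without such nuclei none of the 5 was called.

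In the other direction, WNT3A, a WNT ligand of the dorsal midline, differed by -2.52, because it was at 2.03 and 2.23 CPM in the controls and 10.3 and 28.9 with PP121 in Progenitor 2 while all 4 samples of Progenitor 1 were at 4.18 CPM or less. BMP5, a BMP ligand, differed by -2.40, with 1.82 and 9.28 CPM against 20.7 and 55.6 in Progenitor 2. CASZ1, a zinc finger factor, differed by -1.79, CNTN5, a contactin, by -1.77 and GALNTL6 by -1.37. CASZ1 and CNTN5 were called again without the 3 highest nuclei of each gene (-1.55 and -1.90). In Progenitor 1 CNTN5 was at 8.96 and 33.97 CPM in the controls and 21.4 and 16.7 with PP121. In Progenitor 2 it was at 36.1 and 18.4 CPM in the controls and 61.4 and 158 with PP121. Within day 42 CNTN5 was higher with PP121 in both classes, by the larger factor in Progenitor 1. The negative difference of CNTN5 therefore held within day 38 alone.

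Against enteric neurons, AL356488.3 differed by 4.00 with the replicate block, AC092100.1 by 3.30, RAPGEF4-AS1 by 2.66, AC016650.1 by 2.63 and HDHD3 by 2.54, and none of these was called without the 3 highest nuclei. NREP-AS1 differed by -3.86 and LINC01568 by -1.8. GRIK1, a kainate receptor subunit, differed by -1.57, ZBTB7C by -1.54 and TEAD2, a partner of the YAP co-activator, by -1.51. In Progenitor 1 NREP-AS1 had only 3 and 3 UMIs in the controls and 2 and 0 with PP121. ZBTB7C was there at 14.3 and 2.98 CPM in the controls and 4.13 and 3.78 with PP121, lower within day 42 alone. GRIK1 was at 35.6 and 44 CPM in control neurons and 90.3 and 188 with PP121, and between 6.78 and 16.7 CPM in Progenitor 1; GRIK1, ZBTB7C and TEAD2 were called without the 3 highest nuclei too. With the sample block the smallest p against neurons belonged to AL356488.3 (4.61, adjusted p = 0.0914), AL450992.1 (6.27, adjusted p = 0.130) and LINC00326 (2.10, adjusted p = 0.141).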

How the results depend on the processing

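Without the block, 0 genes were called in Progenitor 1; 593 were called with the replicate block, 1 by DESeq2's Wald test, 81 without a filter on low counts, and 6 to 349 when 1 sample was left out (6 and 30 without control replicates 1 and 2, 349 and 81 without PP121 replicates 1 and 2). With the replicate block, 593 became 0 without it, 75 by DESeq2, 316 in joint clusters, 306 in core nuclei, 1079 with nuclei put back, 255 at equal numbers of nuclei and 212 in G1 nuclei; the share of higher calls was 78.8%, and 68.0% in joint clusters and 62.0% with nuclei put back. The other alternatives with the block gave 514 to 600. Against Progenitor 2, 1 call became 178 with the replicate block, 0 without the sample block, with 10 counts in every sum or without the 3 highest nuclei (145 with the replicate block), 2 with nuclei put back (541 with the replicate block), and 17 to 100 without 1 sample. Against neurons, 0 became 634 with the replicate block, 422 with nuclei put back and 638 without the 3 highest nuclei under that block, and 1 to 154 without 1 sample. The difference of 2.36 points in the share in S or G2M became 4.47 in joint clusters, and 4.09, 0.639, 0.256 and 4.47 without control replicates 1 and 2 and PP121 replicates 1 and 2. R2 was 0.967 to 0.983 under the alternatives run. Of 28 named genes, with the replicate block LUZP2 turned to -0.32 in joint clusters and -0.026 in core nuclei, TMEM163 to -0.056 in joint clusters, and GRAMD4 to -0.13 at equal numbers of nuclei and -0.045 without its 3 highest. The other named genes kept their direction wherever tested. With the block, 28 kept their call with nuclei put back, 19 at equal numbers of nuclei, 16 in core nuclei and 6 by DESeq2. In G1 nuclei 14 kept it and 10 did not. DESeq2 did not call 22, among them FOXP2 (adjusted p = 0.746), FTCD (0.916) and GRAMD4 (0.999), and gave many of the 22 no adjusted p. Leaving out a sample with the block was not possible, since no residual degree of freedom remains; a lone sample was assumed to vary like the other group. The causes were not tested. Sums of 3045010 to 7021875 UMIs limit genes near 1 CPM. The alternatives that leave out high Scrublet scores or the 3 highest nuclei, and those that put nuclei back in the interaction, were chosen after seeing the data.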

Other observations

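Genes outside the lists, chosen after their values were seen, were called in the deposited class, in the core nuclei, with nuclei put back and without each gene's 3 highest nuclei. DACH2, a transcriptional co-factor, was at 60.8 and 85.6 CPM in the controls and 130 and 284 with PP121 (log2 fold change 1.42, SE 0.17, adjusted p = 1.17e-12). TMEM132C rose by 1.37, SORCS3, a sorting receptor of neurons, by 1.53, PLEKHA6 by 1.28 and LDB2, a LIM domain binding co-factor, by 1.17. HILPDA, a lipid droplet protein induced by hypoxia, rose by 1.43, from 7.29 and 9.15 CPM to 17.3 and 28.1. Among the falls, PDE3A, a cyclic nucleotide phosphodiesterase, went from 191 and 103 CPM to 88.6 and 55.4 (-1.01, SE 0.18, adjusted p = 4.33e-06), and NEAT1, the scaffold RNA of paraspeckles, from 6924 and 6528 CPM to 5891 and 2990 (-0.68, SE 0.12, adjusted p = 3.97e-06). These values had been seen when the genes were picked, and are descriptions.

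Genes of cilia, matrix and adhesion moved singly, where 3.69% of all genes tested were called. Of 30 motile cilia genes tested CFAP47 and DNAH11, an outer arm dynein, rose, by 2.24 and 1.28, and none fell. Of 26 collagens COL4A2, of basement membranes, rose by 0.96 and COL5A2, also a mesenchymal marker of the study, by 0.89, and of 22 laminins and integrins ITGA6 rose by 1.23. Of 32 cadherins CDH4 rose by 0.71 and CDH8 fell by 0.75. No cadherin rose in the core nuclei. CDH1, the cadherin of epithelia, had 16 and 15 UMIs in the controls and 3 and 1 with PP121 (adjusted p = 0.00211, too few for a fold change), and 68.8% and 86.7% of the control UMIs lay in 3 nuclei. Of 12 mitochondrially encoded transcripts MT-CO2 fell by 1.04, with a median of -0.62 over the list and a mean mitochondrial share per nucleus of 0.03% or less in every sample. None of the 12 was called in the core nuclei.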
